A study of Mus musculus with 9 samples.

Results

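The genes described here are the neurotrophins Bdnf and Ntf3, the related growth factor Gdnf, the receptors Ntrk2, Ntrk3 and Ngfr, the transcription factor Creb1 and its neuropeptide target Vgf. They were chosen by gene symbol. Of the 8 genes, 7 had a probe set (the group of probes that reads 1 gene) under their symbol, among 19505 named genes on the array, and each of the 7 had 1 probe set. Ntf3 was not analysed here. Signals were measured on Clariom S mouse arrays in brain of male mice, with 3 arrays in each of 3 groups. One group was C57BL/6JHamSlc-ob/ob mice given VE, an extract of Vigna umbellata, at 100 mg/kg by gavage. C57BL/6JHamSlc-ob/ob mice given vehicle were their controls, and C57BL/6JHamSlc-+/+ mice given vehicle were the wild type. All mice arrived at 6 weeks of age, had 1 week to settle and were then dosed for 42 days on standard chow. The ob/ob mice carry no functional leptin at any age, so the genotype is a lifelong loss, and the part of the brain that was taken is not stated in the labels.

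Neurotrophins are secreted growth factors that keep neurons alive and tune their synapses. BDNF acts through the receptor tyrosine kinase TrkB, the product of Ntrk2, and NT-3, the product of Ntf3, through TrkC, the product of Ntrk3. Their uncleaved precursors bind the p75 receptor, the product of Ngfr, together with sortilin. Trk receptors signal through adaptors to the MAP kinase, PI3 kinase and phospholipase C pathways, which can lead to phosphorylation of CREB, the product of Creb1. CREB binds the cyclic AMP response element and, with CRTC coactivators, drives activity-dependent genes that include Bdnf and Vgf. In the hypothalamus, BDNF and TrkB are known to restrain food intake.

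The labelled tissue was checked first. All 7 neuron markers had a mean signal above the median of all probe sets, 7.13 on the log2 scale, and none of the 5 measured adipocyte markers did, although the design text also names white adipose tissue. The second VE array was unlike the rest. It correlated with them at 0.962 to 0.970, while those 8 correlated with each other at 0.979 to 0.993. Its values had an SD of 2.38, against 2.80 and 2.69 on the other VE arrays. The SD was 2.56 to 2.73 on ob/ob vehicle arrays and 2.78 to 2.84 on wild-type arrays. The second VE array held the lowest value of the 9 arrays for 55.1% of probe sets with a mean above the median level, and the highest for 5.31%. Among probe sets at or below the median level those shares were 20.8% and 25.1%. Arrays are named by group and by the replicate number in their titles, and the description of the second VE array lacks the word Avg that those of the other 8 hold. Changes of single genes that move by over 1.5 times, change sign or change their call without that array are given with and without it.

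The stretches upstream of 4 genes are shown because they hold the core of the cyclic AMP response element through which CREB acts. The members Bdnf and Gdnf had it, and so did Nr4a2 and Nr4a3, activity-dependent genes that passed the test below. The motif searched was TGACG on either strand, which reads CGTCA on the other, and the full palindrome TGACGTCA, which contains both and overlaps them. Sequences are from RefSeq on GRCm38.p6, from 250 bases before to 50 after an annotated start, 5′ to 3′ on the strand of the gene, with each match in capitals.
Bdnf, chr2:109692186-109692485, plus strand: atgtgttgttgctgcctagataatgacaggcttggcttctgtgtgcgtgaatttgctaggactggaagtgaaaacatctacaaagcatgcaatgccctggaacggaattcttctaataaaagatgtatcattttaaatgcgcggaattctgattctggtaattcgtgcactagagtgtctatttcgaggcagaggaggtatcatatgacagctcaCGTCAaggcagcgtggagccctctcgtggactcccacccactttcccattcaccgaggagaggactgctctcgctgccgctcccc
Gdnf, chr15:7809798-7810097, plus strand: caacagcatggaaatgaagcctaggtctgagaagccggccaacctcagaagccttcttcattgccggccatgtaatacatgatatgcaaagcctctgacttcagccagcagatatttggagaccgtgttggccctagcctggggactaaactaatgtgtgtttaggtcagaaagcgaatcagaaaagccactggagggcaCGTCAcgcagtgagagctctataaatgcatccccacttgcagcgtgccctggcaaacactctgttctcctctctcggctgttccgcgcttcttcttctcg
Nr4a2, chr2:57123954-57124253, minus strand: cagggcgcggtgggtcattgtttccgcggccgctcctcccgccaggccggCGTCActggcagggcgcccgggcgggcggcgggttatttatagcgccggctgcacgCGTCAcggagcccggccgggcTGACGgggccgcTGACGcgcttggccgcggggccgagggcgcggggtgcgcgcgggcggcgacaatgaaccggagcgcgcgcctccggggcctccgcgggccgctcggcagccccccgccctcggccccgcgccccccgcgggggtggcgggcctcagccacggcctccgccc
Nr4a3, chr4:48045055-48045354, plus strand: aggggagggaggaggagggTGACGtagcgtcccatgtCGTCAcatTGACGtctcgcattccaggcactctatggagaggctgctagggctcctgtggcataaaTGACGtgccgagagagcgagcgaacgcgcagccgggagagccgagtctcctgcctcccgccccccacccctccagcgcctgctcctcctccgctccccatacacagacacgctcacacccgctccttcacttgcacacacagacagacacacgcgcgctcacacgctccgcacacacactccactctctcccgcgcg
In these windows the first matched base lay at position -35 for Bdnf, -50 for Gdnf, -200 for Nr4a2 and -231 for Nr4a3, counted from the start. The promoter table held 14 windows for 6 members, and 2 of the 14 had the core and 0 the full palindrome. Vgf and Ntrk3 had no entry. Over all 32851 windows, 20.8% had the core and 1.79% the palindrome. Bdnf had 7 windows, 1 for each annotated start, and the array reads 11 transcripts of Bdnf with 1 probe set, so no value below belongs to a single promoter.

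None of the 7 measured members passed the test in any of the 3 comparisons. The test was limma on the 9 arrays with Benjamini-Hochberg adjustment over all 22206 probe sets, and a gene is called at an adjusted p under 0.05. In ob/ob vehicle against wild type 0 of 7 members were called, where 1.27% of all probe sets were, with adjusted p of 0.289 to 0.991. For VE against ob/ob vehicle it was 0 of 7, where 0.486% of all probe sets were called, with adjusted p of 0.267 to 0.986. For VE against wild type it was again 0 of 7, where 0.0991% were called, with adjusted p of 0.385 to 0.804. Under the thresholds of the design text, applied to limma's unadjusted p (under 0.05, with a fold over 1.1), the counts were 0, 2 and 1 of 7, where 20.1%, 13.3% and 12.2% of all probe sets passed. Those 2 and 1 were lower with VE, and among all probe sets 10.2%, 10.1% and 9.21% passed as lower in the 3 comparisons. The 95% intervals of the log2 changes, which are not adjusted over probe sets, reached from 0.48 to 0.80 to either side. A change larger than that reach could still miss the adjusted threshold with 3 arrays a group. Those of Ngfr (-0.59) and Ntrk3 (-0.67) for VE against ob/ob vehicle did so.

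**Figure D1:**
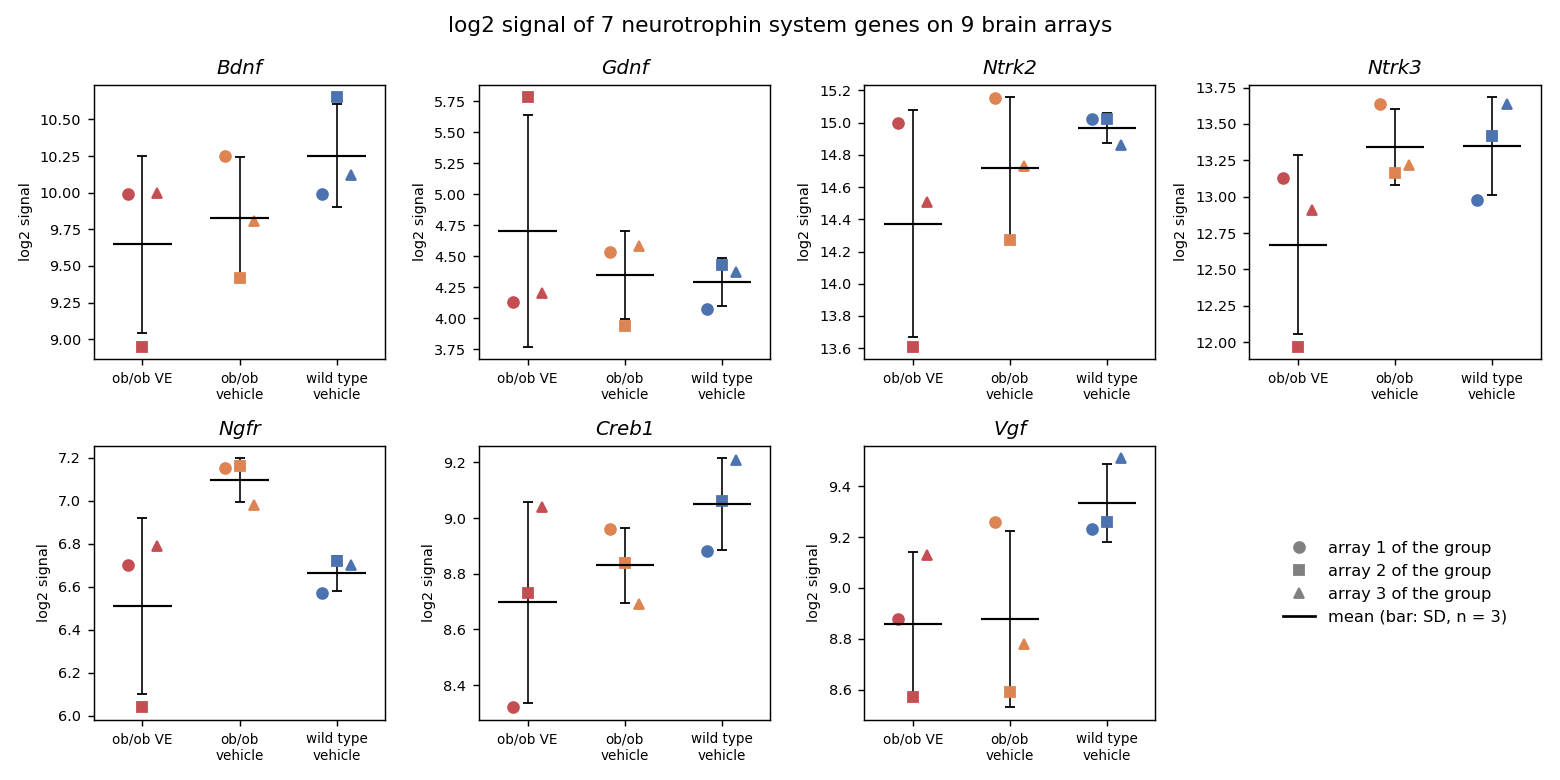
Signal of each measured gene on the log2 scale (y axis) in ob/ob VE, ob/ob vehicle and wild-type vehicle brain (x axis), with 1 point per array, the mean as a line and the SD as a bar (n = 3). Ngfr was higher on all 3 ob/ob vehicle arrays than on the other 6, and the second VE array was the lowest of the 9 for 5 of the 7 genes.

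The ligand Bdnf, the main neurotrophin of the adult forebrain, had log2 signals of 9.99, 8.95 and 10.00 in VE brain, 10.25, 9.42 and 9.81 in ob/ob vehicle brain, and 9.99, 10.65 and 10.12 in wild-type brain. The group means stood in the order VE, ob/ob vehicle and wild type from low to high, at 9.65 (SD 0.603), 9.83 (SD 0.415) and 10.25 (SD 0.35), and the arrays of every pair of groups overlapped. Its change was -0.43 in ob/ob vehicle against wild type (95% interval -1.10 to 0.25, limma adjusted p 0.466), and -0.22 after quantile normalization. Against ob/ob vehicle the change with VE was -0.18 (-0.86 to 0.50, limma adjusted p 0.859), and 0.17 without the second VE array. Set against wild type, VE brain was at -0.61 (-1.28 to 0.07, limma adjusted p 0.458), and at -0.26 without that array.

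Gdnf, a ligand of the RET receptor that supports dopamine and motor neurons, had a dim probe set, below the array median on all 9 arrays. Its log2 signals were 4.13, 5.78 and 4.20 in VE brain, 3.94 to 4.58 in ob/ob vehicle brain and 4.07 to 4.43 in wild-type brain. The single high value, 5.78, was that of the second VE array, and the other 8 arrays lay within 3.94 to 4.58. That array held the highest value for 25.1% of all probe sets at or below the median level. Changes were 0.06 in ob/ob vehicle against wild type (95% interval -0.74 to 0.86), and 0.35 for VE against ob/ob vehicle (-0.45 to 1.15). Without the second VE array the VE change was -0.19, so its sign rested on that array.

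Ntrk2 encodes TrkB, whose full-length form signals in neurons and whose truncated form is abundant in astrocytes. The probe set is paired with 3 transcripts and gives 1 value for all of them. Log2 signals were 15.00, 13.61 and 14.51 in VE brain, 15.15, 14.27 and 14.73 in ob/ob vehicle brain, and 15.02, 15.02 and 14.86 in wild-type brain. Wild-type arrays were close together (SD 0.0924), while VE (SD 0.705) and ob/ob vehicle arrays (SD 0.44) were spread and overlapped them. The change in ob/ob vehicle against wild type was -0.25 (95% interval -0.94 to 0.44, limma adjusted p 0.693), and 0.10 after quantile normalization. VE brain was at -0.34 against ob/ob vehicle (-1.04 to 0.35, limma adjusted p 0.697), and at 0.04 without the second VE array.

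Ntrk3 encodes TrkC, the receptor of NT-3. Its log2 signals were 13.13, 11.97 and 12.91 in VE brain, 13.64, 13.16 and 13.22 in ob/ob vehicle brain, and 12.98, 13.42 and 13.64 in wild-type brain. All 3 VE arrays were lower than all 3 ob/ob vehicle arrays, with 13.13 and 13.16 as the nearest values, and wild-type arrays overlapped those of the VE group. The change of VE against ob/ob vehicle was -0.67 (SE 0.297, 95% interval -1.31 to -0.03), with an unadjusted p of 0.0422 and a limma adjusted p of 0.349. Without the second VE array it was -0.32 (limma adjusted p 0.485). Against wild type the VE change was -0.68 (SE 0.297, limma adjusted p 0.385), and -0.33 without that array. Ob/ob vehicle and wild-type means were 13.34 and 13.35, a change of -0.01 (-0.65 to 0.64).

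Ngfr encodes p75, a receptor of all neurotrophins that in adult brain is best known from cholinergic neurons of the basal forebrain. Log2 signals were 6.70, 6.04 and 6.79 in VE brain, 7.15, 7.16 and 6.98 in ob/ob vehicle brain, and 6.57, 6.72 and 6.70 in wild-type brain. The 3 ob/ob vehicle arrays lay above the 6 others, a pattern shown by 6.86% of all probe sets. The means were 6.51 (SD 0.41), 7.10 (SD 0.101) and 6.66 (SD 0.0814) in VE, ob/ob vehicle and wild-type brain. The change in ob/ob vehicle against wild type was 0.43 (SE 0.223, 95% interval -0.05 to 0.92, limma adjusted p 0.295). For VE against ob/ob vehicle it was -0.59 (SE 0.223, -1.07 to -0.10), with an unadjusted p of 0.0209 and a limma adjusted p of 0.267. Without the second VE array the VE change was -0.35 (limma adjusted p 0.329), with the remaining VE arrays still below the ob/ob vehicle arrays. These 2 comparisons share the ob/ob vehicle arrays, so their opposite signs are not independent. The probe set was dim, below the array median on all 9 arrays, and the 4 measured markers of basal forebrain cholinergic neurons averaged 5.04 to 5.20 in VE, 5.12 to 5.38 in ob/ob vehicle and 5.05 to 5.12 in wild-type brain. Of those 4 markers 1 was above the median level of all probe sets. Their part in the Ngfr values was not tested.

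**Figure D2:**
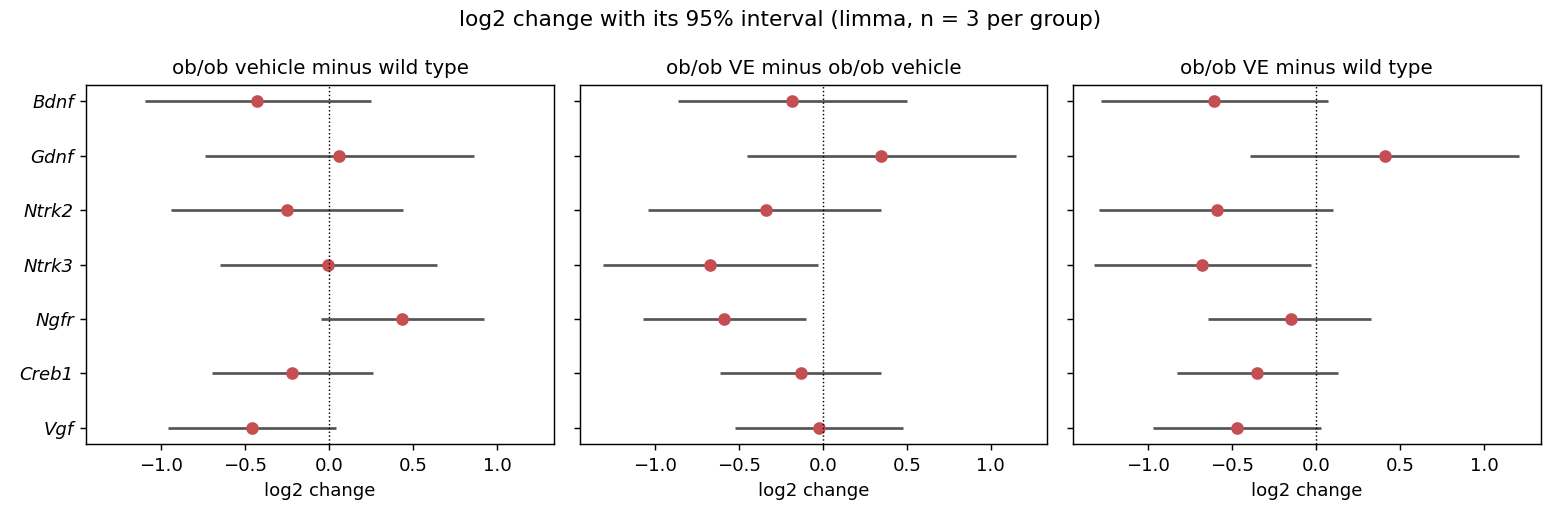
Log2 change of each measured gene (x axis, points) with its 95% interval from limma (lines) for ob/ob vehicle minus wild type, ob/ob VE minus ob/ob vehicle, and ob/ob VE minus wild type (n = 3 per group). All intervals cross 0 except those of Ntrk3 and Ngfr for VE minus ob/ob vehicle and of Ntrk3 for VE minus wild type, and none of the 3 passed after adjustment.

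Creb1 had log2 signals of 8.32, 8.73 and 9.04 in VE brain, 8.96, 8.84 and 8.69 in ob/ob vehicle brain, and 8.88, 9.06 and 9.21 in wild-type brain. The groups overlapped, and the change was -0.22 in ob/ob vehicle against wild type (95% interval -0.70 to 0.26), -0.13 for VE against ob/ob vehicle (-0.61 to 0.35) and -0.35 for VE against wild type (-0.83 to 0.13). CREB is controlled mainly by phosphorylation, which arrays do not measure.

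Vgf, a secreted neuropeptide precursor that BDNF and neuronal activity induce, had log2 signals of 8.88, 8.57 and 9.13 in VE brain, 9.26, 8.59 and 8.78 in ob/ob vehicle brain, and 9.23, 9.26 and 9.51 in wild-type brain. VE arrays were all below wild-type arrays, and the highest ob/ob vehicle array, 9.26, equalled the middle wild-type array. The change was -0.46 in ob/ob vehicle against wild type (SE 0.232, 95% interval -0.96 to 0.04, limma adjusted p 0.289), and -0.31 after quantile normalization. For VE against wild type it was -0.47 (SE 0.232, -0.97 to 0.03, limma adjusted p 0.435). VE and ob/ob vehicle means were 8.86 and 8.88, a change of -0.02 (-0.52 to 0.48). Without the second VE array the VE mean was 9.01, so the sign of that change rested on the array. Along with Vgf, all 7 neuron markers had changes below 0 in ob/ob vehicle against wild type, with a median of -0.62, and none of the 7 was called. As deposited, their mean log2 signal was 13.62 to 14.22 in ob/ob vehicle arrays and 14.51 to 14.82 in wild-type arrays. In bulk tissue fewer cells of a type and less RNA per cell cannot be told apart.

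The groups of the members did not overlap in few cases. In ob/ob vehicle against wild type Ngfr was apart and higher, 1 of 7 members, where 15.8% of all probe sets were, and 0 of 7 were apart and lower, where 17.5% were. For VE against ob/ob vehicle Ntrk3 and Ngfr were apart and lower, 2 of 7, where 11.9% of all probe sets were, and 0 of 7 were apart and higher, where 4.62% were. For VE against wild type Vgf was apart and lower, 1 of 7, where 11.5% were, and 0 of 7 were apart and higher, where 5.34% were. Changes were below 0 for 5, 6 and 6 of the 7 members in the 3 comparisons in that order, where 48.5%, 57.9% and 58.7% of all probe sets were. The median change of the members was -0.22, -0.18 and -0.47, where the median of all probe sets was 0.02, -0.07 and -0.07.

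Between arrays the members varied most on the second VE array. Its difference from the mean of the other VE arrays was -1.14 for Ntrk2, -1.05 for Bdnf and for Ntrk3, -0.71 for Ngfr and -0.44 for Vgf, in log2 units. For Gdnf the difference was 1.62, and for Creb1 0.05. The lowest of the 9 values was on this array for 5 of 7 members, where it was for 37.9% of all probe sets. Without it, 4 of 7 members had a change below 0 for VE against ob/ob vehicle (median -0.15) and 6 of 7 for VE against wild type (median -0.26). Markers of several cell types were also low on this array. Those of excitatory forebrain neurons, which make much of the brain's BDNF, had a mean log2 signal of 14.17 against 16.51 and 16.01 on the other VE arrays. Neuron markers averaged 12.71 against 14.50 and 14.12, astrocyte markers 11.63 against 12.52 and 12.24, and oligodendrocyte markers 9.84 against 11.21 and 11.02. The dimmer hypothalamic neuron markers were higher there, at 6.51 against 6.23 and 6.25, as were adipocyte markers, at 5.88 against 5.55 and 5.68. Probe sets of any kind differed by level on this array. It held the lowest value for 55.1% of those above the median level and 20.8% of the others, and the highest for 5.31% and 25.1%. The part of these cell types in the Bdnf and Ntrk2 values was not tested.

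**Figure D3:**
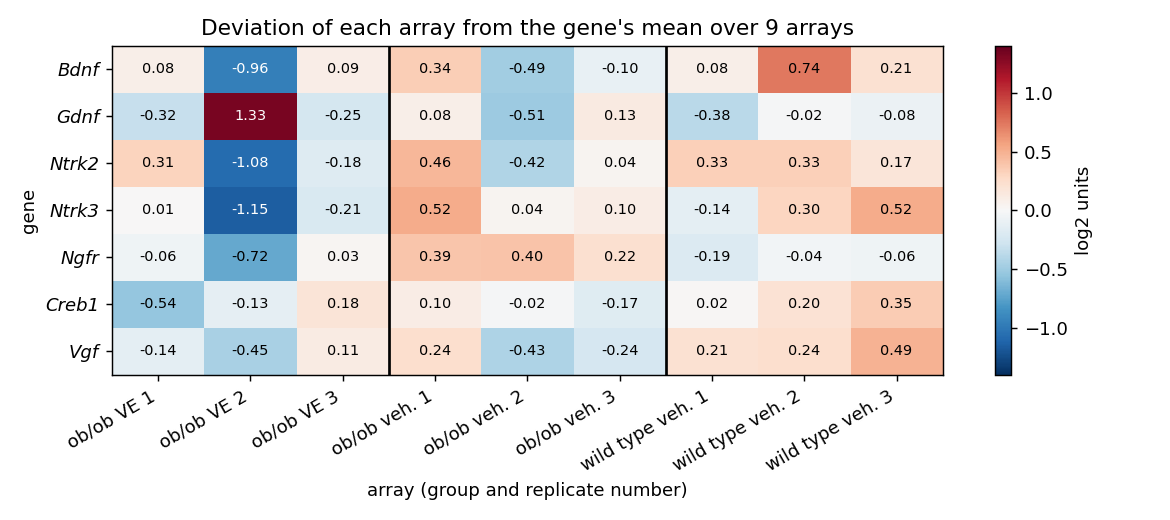
Deviation of each array from the mean of a gene over the 9 arrays, in log2 units (colour and printed value), for the 7 measured genes (rows) and the arrays of the VE, ob/ob vehicle and wild-type groups (columns, left to right). For 5 of the 7 genes the largest deviation is on the second VE array, from -1.15 for Ntrk3 to 1.33 for Gdnf, and Ngfr is above its mean on the 3 ob/ob vehicle arrays alone apart from VE array 3 (0.03).

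Ntrk2 is a gene of astrocytes as well as neurons. All 8 astrocyte markers had changes below 0 in ob/ob vehicle against wild type (median -0.61), and 3 of them, Gfap, Aqp4 and Sox9, were called, where 1.27% of all probe sets were. Other cell types did likewise in that comparison. Changes were below 0 for 6 of 6 choroid plexus markers (median -1.74, Kl and Folr1 called), 6 of 6 oligodendrocyte markers (median -1.17, Cldn11 called) and 7 of 7 microglia markers (median -0.61, C1qb called). The mean log2 signal of the 8 astrocyte markers was 11.63 to 12.52 in VE arrays, 12.03 to 12.42 in ob/ob vehicle arrays and 12.89 to 13.04 in wild-type arrays, so wild type stood apart. Choroid plexus markers averaged 9.23 to 10.11 in VE, 8.60 to 10.04 in ob/ob vehicle and 10.20 to 11.42 in wild-type arrays, oligodendrocyte markers 9.84 to 11.21, 10.32 to 10.87 and 11.28 to 12.09, and microglia markers 7.45 to 7.77, 7.42 to 7.58 and 7.96 to 8.28 in the same order. The Ntrk2 values of ob/ob vehicle and wild type overlapped, and the part of these cell types in the values of the members was not tested. The marker values are as deposited, where signals were spread more widely on wild-type arrays (SD 2.78 to 2.84) than on ob/ob vehicle arrays (SD 2.56 to 2.73). The part of that spread in the marker changes was not tested. Striatal medium spiny neuron markers, 4 measured, had means of 7.71 to 9.04 in VE arrays, 7.32 to 7.82 in ob/ob vehicle arrays and 7.41 to 7.59 in wild-type arrays. Their part in the values of the members was not tested.

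Other ligands and receptors of the system did not pass. Of the 7 listed, 5 were measured, and 0 were called by limma in any comparison. Past the thresholds of the design text were 0, 1 and 1, where 20.1%, 13.3% and 12.2% of all probe sets passed. Sort1, the sortilin that binds pro-neurotrophins with p75, had changes of -0.33, -0.43 and -0.75 in the 3 comparisons (limma adjusted p 0.567, 0.576 and 0.341). Without the second VE array, where Sort1 stood at 12.73 against 14.11 and 13.74 on the other VE arrays, its VE changes were -0.03 against ob/ob vehicle and -0.36 against wild type. Sorcs3, a sortilin relative, was at -0.45 in ob/ob vehicle against wild type and 0.55 for VE against ob/ob vehicle (limma adjusted p 0.271 and 0.293). Sorcs1 was at 0.54 and Sorcs2 at -0.14 for VE against ob/ob vehicle (limma adjusted p 0.492 and 0.831), and without the second VE array at 0.80 and 0.00 (limma adjusted p 0.147 and 0.995).

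In the GDNF family 0 of 8 measured genes were called by limma. The thresholds of the design text were passed by 2, 1 and 1 in the 3 comparisons, where 20.1%, 13.3% and 12.2% of all probe sets passed. Gfra2, the co-receptor of neurturin, had the smallest p in the list. Its log2 signals were 12.46, 11.19 and 11.58 in VE brain, 11.29, 11.19 and 10.97 in ob/ob vehicle brain, and 13.20, 11.78 and 12.22 in wild-type brain. All ob/ob vehicle arrays were below all wild-type arrays, with a change of -1.25 (SE 0.362, limma adjusted p 0.0918). That change passed without the second VE array, which enters only through the shared estimate of the spread (limma adjusted p 0.016). In that setting 2975 of all 22206 probe sets passed. Ret, the signalling receptor of GDNF, was at -0.31 in ob/ob vehicle against wild type and at 0.57 for VE against ob/ob vehicle (limma adjusted p 0.502 and 0.340). The VE change of Ret was 0.28 without the second VE array, its highest value at 6.82 against 5.93 and 5.95 on the other VE arrays. Artn, the ligand artemin, was at 0.43 and Ncam1, an adhesion molecule that GDNF can also signal through, at -0.49 in ob/ob vehicle against wild type (limma adjusted p 0.229 and 0.293).

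Enzymes that cut the precursors of neurotrophins, 10 measured, also gave 0 calls with limma. The thresholds of the design text passed 0 in each comparison, where 20.1%, 13.3% and 12.2% of all probe sets passed. Furin, which cuts pro-BDNF inside the cell, had a change of 0.35 in ob/ob vehicle against wild type and -0.44 for VE against ob/ob vehicle (limma adjusted p 0.422 and 0.458). Pcsk7, a related convertase, was at 0.35 and -0.39 in those comparisons (limma adjusted p 0.380 and 0.471), the second of which was -0.26 without the second VE array.

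**Figure D4:**
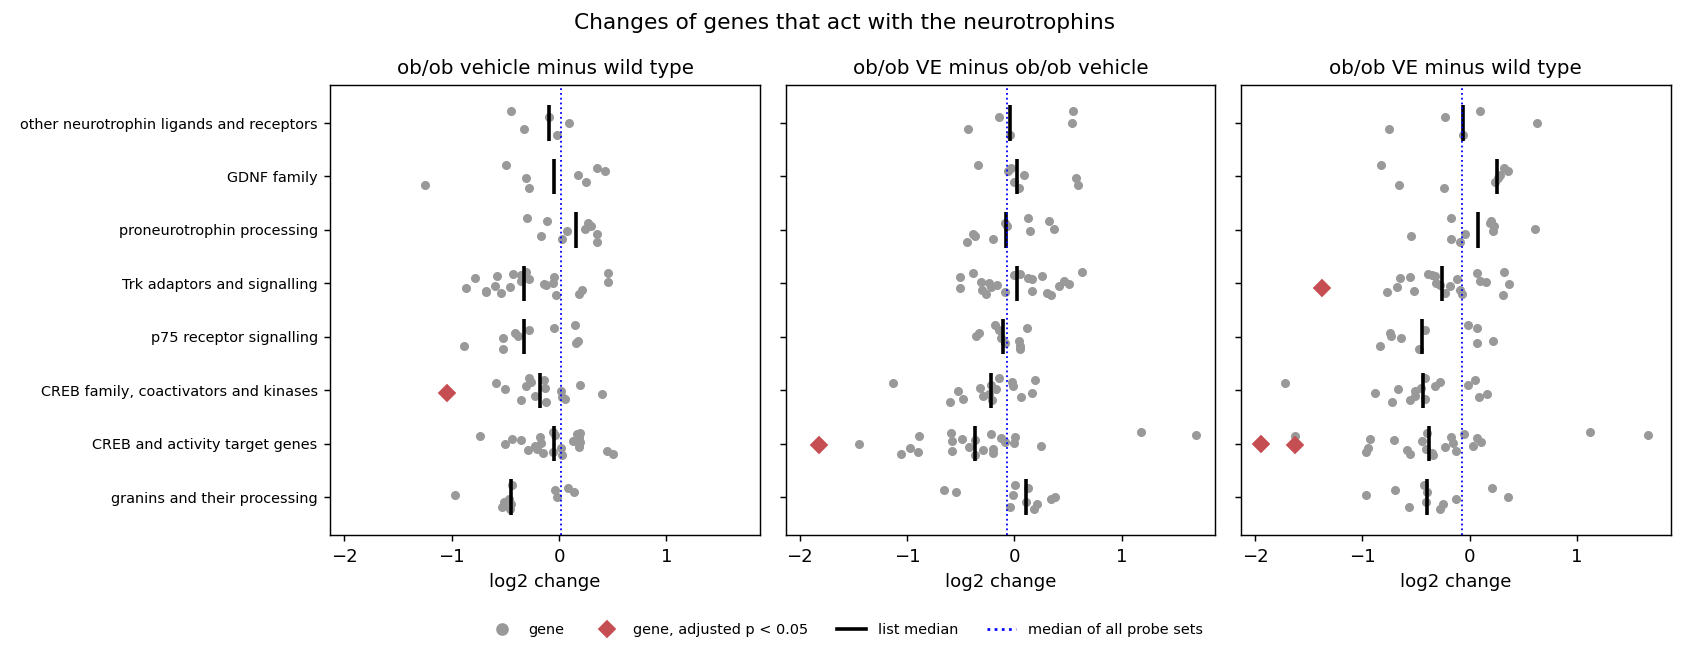
Log2 change (x axis) of the measured genes of 8 lists that act with the neurotrophins (rows), for ob/ob vehicle minus wild type, ob/ob VE minus ob/ob vehicle, and ob/ob VE minus wild type. Grey points are genes, red diamonds genes with a limma adjusted p under 0.05 (Crtc1, then Nr4a2, then Gab1, Nr4a2 and Nr4a3), black lines list medians and dotted lines the median of all probe sets.

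Among adaptors and kinases downstream of Trk receptors 1 gene was called, Gab1, in VE against wild type. Of 29 listed genes 22 were measured, with 18 changes below 0 and a median of -0.33 in ob/ob vehicle against wild type, where limma called 0 of the 22 and 8 passed the thresholds of the design text. Of all probe sets 48.5% were below 0 and 20.1% passed those thresholds there, and their median was 0.02. The median of the 22 listed genes was -0.16 after quantile normalization. In VE against wild type the median was -0.26, -0.10 without the second VE array, and 0.06 after quantile normalization, so the list's direction there depended on the scaling. Gab1 encodes a docking protein that links receptor tyrosine kinases to PI3 kinase and SHP2. Its log2 signals were 7.54, 7.36 and 7.53 in VE brain, 8.38, 7.96 and 7.63 in ob/ob vehicle brain, and 8.77, 9.10 and 8.70 in wild-type brain. The 3 groups did not overlap, with VE lowest and wild type highest. Gab1 fell by 1.38 in VE against wild type (SE 0.226, limma adjusted p 0.0472, n = 3 per group), with a range of 6.36e-05 to 0.281 over the alternatives. The call was lost under 12 of 18 alternatives, among them quantile normalization (change -1.21, limma adjusted p 0.167). Leaving out any single ob/ob vehicle or wild-type array or VE array 3 also ended it. In ob/ob vehicle against wild type its change was -0.87 (SE 0.226, limma adjusted p 0.0711), and -0.87 with an adjusted p of 0.0151 without the second VE array. Frs3, an adaptor that binds Trk receptors, was at -0.68, Akt1, a kinase of the PI3 kinase pathway, at -0.78 and Map2k1, a MAP kinase kinase, at -0.58 in that comparison (limma adjusted p 0.104, 0.121 and 0.133). In the whole list 8 of 22 genes had all ob/ob vehicle arrays below all wild-type arrays, where 17.5% of all probe sets did, and 2 of 22 all above, where 15.8% did. When the second VE array was left out 5 of the 22 were called, all lower. In that setting limma called 2975 of all 22206 probe sets, 1594 of them lower. The limma adjusted p of the 5 was 0.0256 for Frs3, 0.0161 for Akt1, 0.0435 for Map2k1, 0.0151 for Gab1 and 0.0203 for Grb2, an adaptor chosen after its values were seen.

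For signalling partners of p75, 10 were measured and limma called 0. Past the thresholds of the design text were 1, 0 and 4, where 20.1%, 13.3% and 12.2% of all probe sets passed. The 4, in VE against wild type, rested on the second VE array. Without it their limma unadjusted p was 0.063 to 0.139. Maged1, which binds the inner part of p75, had log2 signals of 13.85, 12.49 and 13.60 in VE brain, 13.48, 12.91 and 13.40 in ob/ob vehicle brain, and 14.18, 14.18 and 14.09 in wild-type brain. Its change was -0.89 in ob/ob vehicle against wild type (SE 0.308, limma adjusted p 0.142), and it passed without the second VE array (limma adjusted p 0.00947). Without that array 2975 of all 22206 probe sets passed in that comparison. Bex3, another p75 partner, was at -0.52, Rhoa, a small GTPase that p75 activates, at -0.52, and Rtn4r, a co-receptor of p75, at -0.41 (limma adjusted p 0.326, 0.326 and 0.444).

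Of the CREB family, its coactivators and kinases, 16 of 17 genes were measured and 1, Crtc1, was called, in ob/ob vehicle against wild type. With all 9 arrays 1, 1 and 7 of the 16 passed the thresholds of the design text, where 20.1%, 13.3% and 12.2% of all probe sets did. The 7, in VE against wild type, were all lower, where 9.21% of all probe sets passed as lower. Without the second VE array Atf1, Atf2 and Camk2a no longer passed (limma unadjusted p 0.177, 0.0946 and 0.0875). Creb5, Crtc1, Crtc2 and Crtc3 still did, and Prkacb then passed as higher (change 0.53, and 0.05 with all arrays). Atf1, Atf2, Camk2a, Creb5 and Prkacb are named after their values were seen. CRTC1 moves to the nucleus on neuronal activity and boosts CREB-driven transcription, and mice that lack it are known to become obese. Its log2 signals were 11.91, 11.51 and 11.62 in VE brain, 11.50, 11.84 and 11.23 in ob/ob vehicle brain, and 12.56, 12.43 and 12.70 in wild-type brain. All 6 ob/ob arrays, with or without VE, were below the 3 wild-type arrays. Crtc1 fell by 1.04 in ob/ob vehicle brain (SE 0.216, limma adjusted p 0.0422, n = 3 per group), with a range of 0.0022 to 0.203 over the alternatives. The call was lost after quantile normalization (change -0.73, limma adjusted p 0.113), with the replicate number as a block (limma adjusted p 0.0509), and without any single ob/ob vehicle or wild-type array or VE array 3. Without the second VE array it was -1.04 with an adjusted p of 0.00493. The log2 change of Crtc1 with VE was -0.88 relative to wild type and 0.16 relative to ob/ob vehicle, with limma adjusted p of 0.145 and 0.813. The change relative to ob/ob vehicle was 0.24 without the second VE array.

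The relatives Crtc2 and Crtc3 did not pass. Crtc2 was at 0.02 in ob/ob vehicle against wild type and -0.53 for VE against ob/ob vehicle (limma adjusted p 0.962 and 0.253), and Crtc3 was at -0.50 and -0.17 (limma adjusted p 0.262 and 0.819). Atf4, a bZIP factor of the stress response, was at -0.48 for VE against ob/ob vehicle (limma adjusted p 0.382), and at -0.24 without the second VE array, where it stood at 12.27 against 13.02 and 12.97 on the other VE arrays. On quantile-normalized values the list median in ob/ob vehicle against wild type changed sign, from -0.18 as deposited to 0.04. In VE against wild type the list median was -0.44 as deposited, where that of all probe sets was -0.07, and -0.18 without the second VE array.

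Activity-dependent target genes of CREB, 24 of 24 measured, gave 1 call for VE against ob/ob vehicle, Nr4a2, and 2 for VE against wild type, Nr4a2 and Nr4a3. In ob/ob vehicle against wild type limma called 0, with 0 past the thresholds of the design text, where 20.1% of all probe sets passed. When the second VE array was left out it called 1, Sst (lower, limma adjusted p 0.0235), and 2975 of all 22206 probe sets. For VE against ob/ob vehicle 9 of 24 passed those thresholds, where 13.3% of all probe sets did, and 19 of the 24 changes were below 0, where 57.9% of all probe sets were. The list median was -0.37, where that of all probe sets was -0.07, and it was -0.25 on quantile-normalized values. Leaving out the second VE array gave 16 of 24 below 0, with a median of -0.29. In that setting limma called 403 of all 22206 probe sets for VE against ob/ob vehicle and 73 for VE against wild type. In each of these comparisons 4 genes of the list were called. Those were Nr4a2 and Nr4a3, both lower, and Penk and Tac1, both higher, which encode neuropeptides of striatal medium spiny neurons and are named after their values were seen. Penk had log2 signals of 14.12, 10.99 and 13.97 in VE brain, 12.00, 10.51 and 11.49 in ob/ob vehicle brain, and 10.94, 11.65 and 11.52 in wild-type brain. Its change against ob/ob vehicle was 1.69 with all arrays (limma adjusted p 0.272) and 2.71 without the second VE array (limma adjusted p 0.00441). Tac1 was at 1.18 (limma adjusted p 0.176), and at 1.67 without that array (limma adjusted p 0.0102). Of the 4 measured markers of medium spiny neurons, 3 (Ppp1r1b, Drd2 and Rgs9) were also called higher for VE against ob/ob vehicle without that array, and 0 with it. Their part in the Penk and Tac1 values was not tested. Many genes of the list are immediate early genes, which neurons induce within minutes of activity. The promoter table held 24 windows for 17 of these genes, of which 17 windows, from 14 genes, had the core of the response element and 2 the full palindrome, where 20.8% and 1.79% of all windows did. The list was chosen as CREB and activity targets, so its share of matches tests nothing about CREB in these data. Some windows overlap, as those of Egr2 do, and so hold the same match. A match is a run of letters and does not show that CREB binds there. Markers of dentate granule and CA3 neurons, where several of these genes are strongly induced, had 6 of 7 changes below 0 for VE against ob/ob vehicle (median -0.36), and none was called. Their mean log2 signal was 8.56 to 8.84 in VE arrays, 8.92 to 9.23 in ob/ob vehicle arrays and 9.17 to 9.63 in wild-type arrays, and their part in the values of the target genes was not tested.

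Nr4a2, the gene of the orphan nuclear receptor Nurr1, had log2 signals of 11.39, 11.03 and 10.61 in VE brain, 12.67, 12.99 and 12.83 in ob/ob vehicle brain, and 12.16, 13.08 and 12.69 in wild-type brain. All VE arrays were below the 6 others, and ob/ob vehicle and wild-type arrays overlapped. Compared with ob/ob vehicle, Nr4a2 in VE brain fell by 1.82 (SE 0.267, limma adjusted p 0.0334, n = 3 per group; 5.24e-05 to 0.209 over the alternatives). That call was lost without any single ob/ob vehicle array, without wild-type array 2 or 3, and with the compared groups alone. It fell by 1.63 against wild type (SE 0.267, limma adjusted p 0.0472, range 1.06e-05 to 0.314), a call lost under 12 of 18 alternatives. Those 12 included quantile normalization (change -1.28, limma adjusted p 0.227) and leaving out any ob/ob vehicle array, wild-type array 2 or 3 or VE array 3.

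Nr4a3, a relative of Nr4a2, had log2 signals of 12.16, 12.38 and 12.29 in VE brain, 14.11, 13.51 and 13.57 in ob/ob vehicle brain, and 13.40, 14.89 and 14.39 in wild-type brain. VE arrays were close together and below the 6 others. It fell by 1.95 in VE against wild type (SE 0.32, limma adjusted p 0.0472, range 2.82e-05 to 0.314), a call lost under 12 of 18 alternatives, among them quantile normalization (change -1.50, limma adjusted p 0.227). The call also ended without any ob/ob vehicle array, wild-type array 2 or 3 or VE array 3. The change of Nr4a3 relative to ob/ob vehicle was -1.45 (limma adjusted p 0.0649), and -1.50 with an adjusted p of 0.0319 without the second VE array. Arc, a synaptic immediate early gene, had a change of -0.97 and Fosb, an AP-1 subunit, of -1.06 in that comparison (limma adjusted p 0.0836 and 0.0891). In the whole list 8 of 24 genes had all VE arrays below all ob/ob vehicle arrays, where 11.9% of all probe sets did. Bdnf, itself an activity-dependent gene, was at -0.18 there and its groups overlapped.

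**Figure D5:**
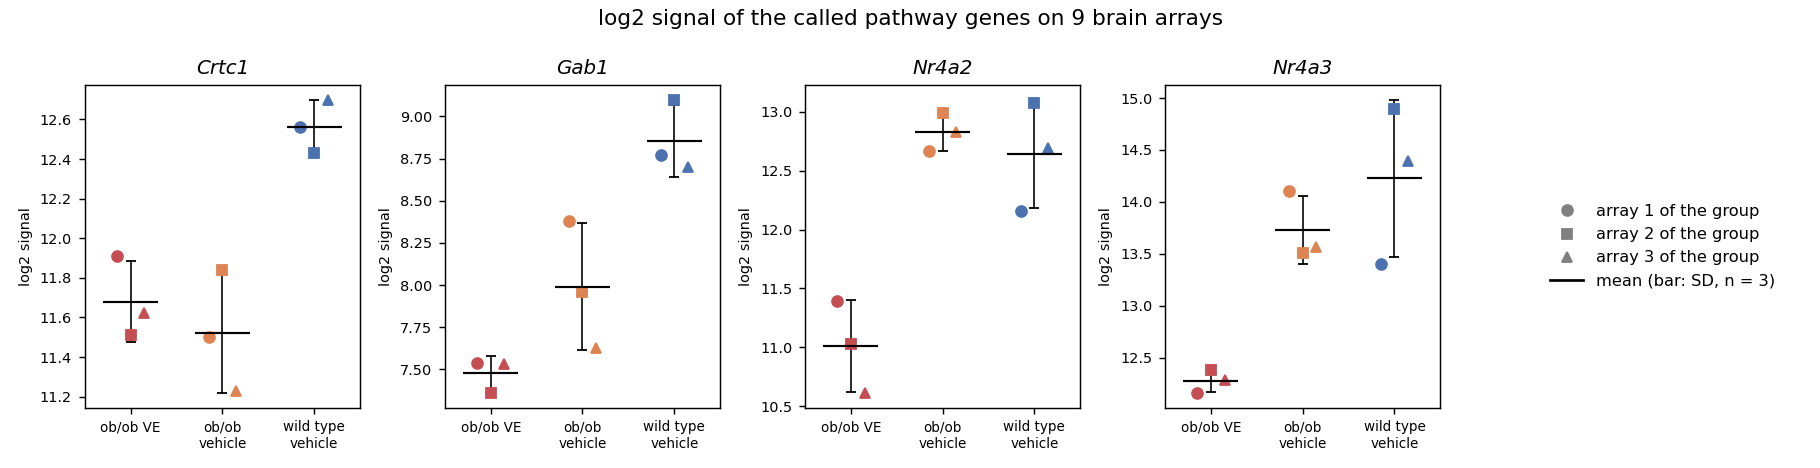
Signal on the log2 scale (y axis) of the 4 called genes of the pathway lists in ob/ob VE, ob/ob vehicle and wild-type vehicle brain (x axis), with 1 point per array, the mean as a line and the SD as a bar (n = 3). Crtc1 is highest on the 3 wild-type arrays, Gab1 is lowest on the VE arrays and highest on the wild-type arrays, and Nr4a2 and Nr4a3 are lowest on the 3 VE arrays.

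Vgf belongs to the granin family of secretory proteins, and of 11 measured granins and processing genes limma called 0. Past the thresholds of the design text were 2, 1 and 1, where 20.1%, 13.3% and 12.2% of all probe sets passed. Changes were below 0 for 9 of the 11 genes in ob/ob vehicle against wild type, where 48.5% of all probe sets were. The list median, -0.45, was -0.15 on quantile-normalized values. Pcsk1n, an inhibitor of the prohormone convertase that cuts VGF, had log2 signals of 11.24, 10.74 and 11.06 in VE brain, 10.59, 11.55 and 10.92 in ob/ob vehicle brain, and 12.18, 11.68 and 12.10 in wild-type brain. All 6 ob/ob arrays were below the wild-type arrays, and the change relative to wild type was -0.97 with VE and -0.97 with vehicle (SE 0.263 each), with limma adjusted p of 0.175 and 0.0811. The vehicle change passed when the second VE array was left out (limma adjusted p 0.0156), as did 2975 of all 22206 probe sets. Chga, which encodes chromogranin A, was at -0.46, Scg5, a chaperone of the convertase PC2, at -0.47 and Cpe, a carboxypeptidase, at 0.14 in ob/ob vehicle against wild type (limma adjusted p 0.229, 0.273 and 0.775). For VE against ob/ob vehicle Cpe was the 1 gene past the thresholds of the design text, at -0.54 (limma unadjusted p 0.0469, adjusted p 0.366). Without the second VE array Cpe was at -0.28 (limma unadjusted p 0.195).

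Genes with the most similar profile over the 9 arrays were found by the root mean square difference of log2 values after centring each gene on its mean, among 9731 other genes above the median level. For Bdnf these were Ddt, Cops8 and Tnfaip6, at 0.111, 0.113 and 0.117 log2 units. For Ntrk2 they were Sqstm1, Paip2 and Ppp1r9b, at 0.0697, 0.0821 and 0.085. For Vgf they were Erlin1, Ifnar2 and Ldah, at 0.054, 0.0686 and 0.105. The profiles share the low second VE array: Sqstm1 stood at 12.34 there, against 13.73 and 13.29 on the other VE arrays. None of the 9 genes was called in any comparison, with limma adjusted p of 0.223 or more.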

How the data were processed

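The deposited values were log2 signals, 1 per probe set and array, that the authors made with Transcriptome Analysis Console 4.0.2 (SST-RMA), as the design text states, per the labels. They were used without further normalization. Symbols came from the platform annotation, which names 1 gene for 19572 of 22206 probe sets and none for 2634. Where a gene had several probe sets, the one with the highest mean stood for it. Group means were fitted over 9 arrays with limma 3.58.1 in R 4.3.3 (6 residual and 7.03 prior degrees of freedom) and adjusted by Benjamini-Hochberg over all probe sets, after a run on simulated data. Arrays have no sequencing depth, and 3 arrays a group limit the precision. The labels do not say that each array was a separate mouse, so p-values measure the spread between these samples.

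Members, lists and tests were chosen with earlier results of these data known. Named beside the members are called genes of the 8 pathway lists, up to 4 per list with the smallest p in either of the first 2 comparisons, and the 3 genes most like Bdnf, Ntrk2 and Vgf. The 18 alternatives changed the scaling, filter, threshold, moderation, array weights, groups fitted, replicate block or arrays kept. The design text lists groups at 50 and 100 mg/kg in white adipose tissue, while every treated sample is labelled 100 mg/kg and brain, and the labels were followed. Detection calls and scan batches were not analysed here.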

Additional observations from a re-analysis of the deposited data

How the results depend on the processing

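The 7 measured members gave 0 calls under all alternatives run except the thresholds of the design text, which passed 0, 2 and 1 members for genotype (ob/ob vehicle over wild type), for VE over ob/ob vehicle, and for VE over wild type. Counts over all probe sets, 281, 108 and 22 in that order, were less stable. They were 631, 324 and 0 after quantile normalization, 614, 71 and 7 with each array centred on its median, 4457, 2962 and 2707 under the design text's thresholds, 3601, 3307 and 3286 with array weights, and 2626, 0 and 0 with the compared groups alone. For VE against ob/ob vehicle and VE against wild type, probe sets above the median level gave 180 and 49, and trend and robust moderation 225 and 10. Quantile normalization without the second VE array, an alternative chosen after seeing the data, gave 1970 and 418 for the first 2 comparisons. Leaving out 1 array at a time gave 0 to 2975, 0 to 403 and 0 to 158, and without the second VE array the counts were 2975, 403 and 73. With the replicate number as a block they were 251, 144 and 2. Only 4 of 9 same-numbered pairs of arrays correlated above 0.1 (-0.0323 to 0.331), as deviations from their group means. Arrays numbered 1 were best partners in every pair of groups (0.331, 0.12 and 0.107), while those numbered 2 and 3 were not always. The main fit did not take the numbers to pair the samples, and whether they mark a shared step was not tested. Of 21 member changes, 11 kept their sign under every alternative run and 10 reversed under at least 1, and the cause was not tested. In ob/ob vehicle against wild type, quantile normalization with all arrays gave -0.08 for Gdnf, 0.10 for Ntrk2 and 0.29 for Ntrk3, without the second VE array -0.08, 0.10 and 0.30, and centring -0.01 for Gdnf. Leaving out 1 array gave -0.05 to 0.27 for Gdnf, -0.19 to 0.14 for Ntrk3 and -0.05 to 0.41 for Nr4a2. For VE against ob/ob vehicle, array weights gave 0.18 for Bdnf, -0.13 for Gdnf, 0.16 for Creb1 and 0.26 for Vgf, quantile normalization without the second VE array 0.04 for Bdnf, -0.09 for Gdnf and 0.07 for Vgf, and for Vgf quantile normalization gave 0.06 and centring 0.11. Leaving out 1 array gave -0.38 to 0.17 for Bdnf, -0.19 to 0.64 for Gdnf, -0.66 to 0.04 for Ntrk2, -0.31 to 0.05 for Creb1 and -0.16 to 0.18 for Vgf. For VE against wild type, array weights gave -0.09 for Gdnf and 0.09 for Ngfr, quantile normalization without the second VE array -0.17 and 0.07, and leaving out 1 array -0.13 to 0.70 and -0.29 to 0.08. For Pcsk1n the change against ob/ob vehicle was 0.13 without the second VE array. Leaving out that array for the pathway genes was also chosen after seeing the data. Gdnf and Ngfr lay below the array median on all 9 arrays, so their changes were measured at low signal.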
